A study of Mus musculus with 2 samples.

Results

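The regions described here are the probes for noncoding loci that lie far from annotated genes on a mouse expression array. A probe was a member where its name in the array annotation is a genome interval with a strand (F or R) and where its position is more than 50 kb from the nearest probe with an NM_ accession, the RefSeq code for a curated protein-coding transcript, on the same chromosome and either strand. Of 55681 gene probes, 16181 are for such noncoding loci, 118 of these have no coordinate, and 6071 are members, against 9992 that lie within 50 kb and 26536 probes with an NM_ accession. The members belong to 1855 combinations of a locus and a strand, at 1459 loci. An NM_ probe marks 1 place in a gene, so a member can still lie inside a long gene or in an extension of it, and gene bodies were not analysed here.

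The study set RNA of cells given a control siRNA against RNA of cells given an siRNA to GATA1 (200 pmol each), with 1 Agilent one-colour array for each siRNA and samples from 2 C57BL/6 mice pooled on it. The cells were mast cells derived from bone marrow, kept for 2 weeks in interleukin 3 and for 2 further weeks in interleukin 3 plus stem cell factor, each factor at 10 ng/mL. GATA1 is a zinc finger transcription factor of the erythroid, megakaryocytic, eosinophil and mast cell lineages. With 1 array per siRNA there is no replicate and no test, and the precision of every value below is limited by the number of arrays.

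Loci of this kind come from maps of transcription outside known genes. Long noncoding RNAs made at such places are typically spliced and polyadenylated like messenger RNA, are on average less abundant than messenger RNA, and are often restricted to a few cell types. Some act on genes near the place where they are made: Morrbid, which is encoded in 1 of the clusters described here, is known to repress its neighbour Bcl2l11, a gene for a protein that promotes cell death, in short-lived myeloid cells. For most of the loci on this array no function is known.

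Every probe is 60 bases long. The sequences of 10 members are shown because these probes belong to the 3 groups of neighbouring probes on which the account of differences turns, 1 higher and 2 lower in the GATA1 siRNA array. They are written 5′ to 3′ as the scanner files give them, with mm9 positions, and capitals mark bases that the probe shares with an overlapping member probe of another locus.
chr8:82836976-82837035, minus strand: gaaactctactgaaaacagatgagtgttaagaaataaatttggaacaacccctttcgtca
chr8:82837083-82837142, minus strand: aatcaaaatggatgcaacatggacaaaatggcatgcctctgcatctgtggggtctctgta
chr8:82837143-82837202, minus strand: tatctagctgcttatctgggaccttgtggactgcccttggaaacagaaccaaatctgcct
chr2:128091693-128091752, minus strand: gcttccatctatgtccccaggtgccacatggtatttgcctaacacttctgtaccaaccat
chr2:128091753-128091812, minus strand: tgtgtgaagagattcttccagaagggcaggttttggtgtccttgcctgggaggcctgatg
chr2:128122583-128122642, minus strand: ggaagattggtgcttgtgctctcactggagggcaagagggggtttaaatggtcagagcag
chr2:128122668-128122727, minus strand: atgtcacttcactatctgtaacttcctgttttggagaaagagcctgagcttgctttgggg
chr17:3346959-3347018, plus strand: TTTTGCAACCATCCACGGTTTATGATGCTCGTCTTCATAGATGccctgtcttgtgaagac
chr17:3347048-3347107, plus strand: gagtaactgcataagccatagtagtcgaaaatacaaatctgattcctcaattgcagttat
chr17:3347124-3347183, plus strand: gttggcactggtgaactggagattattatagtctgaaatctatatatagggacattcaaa

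Gata1 itself gave a signal of 16415 with the control siRNA and 3930 with the GATA1 siRNA, a log2 difference (GATA1 siRNA minus control siRNA) of -2.23 after each array was divided by its own 75th percentile. That percentile was 303.2 and 340.0, in the same order, and a signal divided by it is called the scaled signal here. All 10 listed mast cell markers were measured, with a median difference of -0.10. They ran from -0.88 for Mcpt4, the only 1 past 1.5-fold lower, to 0.04 for Cpa3, and none was past 1.5-fold higher. Markers of other cells of the marrow moved as well: the 8 neutrophil markers had a median difference of 0.60 and a summed scaled signal of 79.8 with the control siRNA and 119.2 with the GATA1 siRNA. The 6 measured macrophage markers of 7 had a median of 0.57 and summed to 12.7 and 21.6. They ran from 0.02 for Csf1r to 1.09 for Ms4a7, and C1qa was not measured. The 5 eosinophil markers had a median of -0.56, ran from -0.85 for Epx to 0.60 for Siglecf, and summed to 24.0 and 16.6. Of 5 erythroid markers 2 were measured, Hba-a1 at 0.69 and Epor at -1.58, and Klf1 was not. Of 5 stromal markers 1 was measured, at -0.02. In such bulk RNA, fewer cells of a type and less RNA per cell cannot be told apart, and the part of these other cells in any difference below was not tested.

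Most members gave no signal above background. The scanner software called 2063 of 6070 members (34.0%) well above background in the control siRNA array, and 2272 (37.4%) with the GATA1 siRNA, and 1 further member carried an outlier flag and was left out. In all, 1980 members (32.6%) were well above background on both arrays and are called measured, 292 were above background in the GATA1 siRNA array alone, 83 in the control siRNA array alone, and 3715 (61.2%) in neither. Over all gene probes the shares were 52.7% and 55.2%, and thus also higher with the GATA1 siRNA, with 1970 probes above background on that array alone, 599 on the other alone and 43.7% on neither. Counted by locus and strand, 1044 of 1855 had at least 1 measured probe and 679 had no probe above background on either array.

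Detection was lower at greater distance from annotated genes. Of the loci within 10 kb of an NM_ probe, 42.7% of probes were above background with the control siRNA and 46.7% with the GATA1 siRNA. Between 50 and 100 kb the shares were 35.6% and 39.0%, between 250 and 500 kb they were 31.9% and 34.2%, and beyond 500 kb they were 15.9% and 18.8% of 276 probes. Probes with an NM_ accession stood at 64.2% and 66.1%. There was no step at the 50 kb threshold: probes between 40 and 50 kb, which are not members, had shares of 36.0% and 38.8%, and members between 50 and 60 kb had 34.7% and 38.2%. The median member lay 102.4 kb from an NM_ probe, with quartiles of 70.6 and 177.0 kb, and the farthest at 2097 kb.

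The base composition of the probe went with detection. Members with under 40% G and C were measured in 22.5% of cases, those with 40 to 50% in 29.6% and those with 50% or more in 55.0%. The same 3 bands of NM_ probes gave 61.1%, 62.5% and 71.7%, so members were measured less often in each band, and the gap was widest where G and C were few. Noncoding loci within 50 kb lay between, at 30.9%, 36.2% and 56.3%. The part of base composition in the detection of members was not tested. By chromosome, the share measured ran from 20.2% on chromosome 18 to 46.4% on chromosome 6.

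Measured members were dim. Their median scaled signal was 0.23 in the control siRNA array, with quartiles of 0.11 and 0.71, and 0.21 in the GATA1 siRNA array, with quartiles of 0.099 and 0.66. The median of measured NM_ probes was 1.76 and 1.81. Of the measured members, 394 (19.9%) were brighter than the 75th percentile of the control siRNA array, against 59.9% of measured NM_ probes. Brightness also depends on how well a probe binds, so these levels describe sets of spots and do not rank single loci.

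Some of the bright members share sequence with other transcripts. Among the 394 members above the 75th percentile, 38 (9.64%) have at least 20 bases in a row in common with a probe at another place in the genome, 14 of them with an NM_ probe. Among the other 1586 measured members 86 (5.42%) do, 2 of them with an NM_ probe. For chr5:96591892-96606467_F, at 129.3 and 137.7 over 3 probes, the shared partners were probes of another noncoding locus on chromosome 14 and of Ifitm2, an interferon-induced membrane protein gene. Which RNA gave the signal of such a probe cannot be told apart.

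Ribosomal RNA was the annotated transcript at another bright place. The locus chr17:39982023-39983277_F had scaled signals of 114.0 with the control siRNA and 110.8 with the GATA1 siRNA over 3 probes, and a probe of Rn18s, the 18S ribosomal RNA, lies just downstream. All 20 members there were measured, 10 on each strand. Those on the plus strand differed by -0.11 to 0.02 (median -0.04) and those on the minus strand by -0.19 to -0.02 (median -0.10). The plus strand members lie from 39982106 to 39985688 and the minus strand ones from 39980297 to 39981446, so they do not face each other. No minus strand member thus reads the strand opposite the plus strand members. Scaled signals in the control siRNA array were 10.3 to 286.8 on the plus strand and 3.0 to 9.05 on the minus strand. Under other scalings the plus strand median lay between -0.09 and 0.02 and so had no settled sign.

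For the other bright loci named here, no shared sequence was found among the probes of the array. Probes were compared only with each other, so sequence shared with transcripts that no probe covers was not tested. The locus chr4:94742359-94822969_F, whose nearest NM_ gene is Jun, a subunit of the AP-1 transcription factor, had 1 measured probe of 2 at 213.8 with the control siRNA and 195.9 with the GATA1 siRNA, a difference of -0.13. At chrX:18744367-18853992_F, 1 of 4 probes was measured, at 204.0 and 182.8, a difference of -0.16, while the other 3 probes of the locus were below background on both arrays. In the chromosome 4 locus both probes lie close together at 1 end of the interval, so its probes do not cover the rest.

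Differences between the arrays were small and leaned to lower values in the GATA1 siRNA array. The median log2 difference of the 1980 measured members was -0.10, with quartiles of -0.27 and 0.07 and an SD of 0.36, and 1306 (66.0%) lay below 0. Over all 28740 measured probes the median was 0.01 and 47.7% lay below 0. Measured noncoding loci within 50 kb had a median of -0.08 and NM_ probes one of 0.04. The members' median stayed below that of all probes under each of the other scalings and the other background correction, by 0.07 to 0.11. That correction (normexp) adds a fixed offset to every signal, which by itself shrinks the log2 differences of dim probes.

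Size rules picked out few members. Higher by 2-fold or more in the GATA1 siRNA array were 14 members (0.707%, against 0.338% of all measured probes), and lower were 13 (0.657%, against 0.612%). In either direction that is 1.36% of the members, against 0.95% of all measured probes. With a rule of 1.5-fold, 39 members (1.97%) were higher, against 1.92% of all, and 114 (5.76%) were lower, against 3.19% of all, where either direction together makes 5.11% of all. When the members were divided into 5 equal groups by mean level, 41 of the 114 lay in the dimmest group and 12 in the brightest.

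Many of the 2-fold values lay in disturbed areas of the array surface. A spot is called marked where at least 2 of its 18 nearest spots differ 4-fold or more between the arrays, which holds for 2.49% of gene spots. Marked spots held 58 of the 1980 measured members, but 5 of the 14 that were 2-fold higher and 8 of the 13 that were 2-fold lower. Without them 9 members were higher and 5 lower (0.468% and 0.260%, against 0.215% and 0.479% of all measured probes without marked spots), and the median stayed at -0.10. The lowest member outside marked spots reached a difference of -1.16, and the 7 members below it were at marked spots.

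Across groups of level, the members' median was nearest 0 in the brightest group and much alike in the others. In the same 5 groups the members' median difference was -0.14 in the dimmest, with quartiles of -0.39 and 0.13, then -0.12, -0.13 and -0.12, and -0.05 in the brightest, with quartiles of -0.15 and 0.06. NM_ probes in the same ranges of level gave -0.11, -0.01, -0.01, 0.02 and 0.05. At matched level the members' median minus that of the NM_ probes was thus -0.03 in the dimmest range and between -0.14 and -0.11 in the others. Against noncoding loci within 50 kb it was 0.03 in the dimmest range and between -0.05 and -0.02 in the others. The scatter between repeated spots grew at low level. For probes printed several times, the SD of the difference over their spots was taken, which holds the noise of both arrays. Its median was 0.33 in the dimmest range (14 probes) and 0.045 in the brightest (166 probes). By base composition the median of the members was -0.04 under 40% G and C, -0.12 between 40 and 50% and -0.11 at 50% or more.

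Probes of 1 locus and strand share their source, so they repeat a measurement on the array but not in another sample. Of 494 loci and strands with at least 2 measured probes, 280 (56.7%) had probes of 1 sign, 70 above 0 and 210 below it. Because 66.0% of measured members lay below 0, unrelated probes would often agree too, mostly below 0. No such share was taken, so the 56.7% does not measure agreement within a locus. The median SD between probes of 1 locus and strand was 0.16. Of 261 with at least 3 measured probes, 32 had all of them above 0 and 92 all below. A single probe past 2-fold was often not shared by its neighbours: of 18 loci and strands with such a probe and at least 2 measured probes, 8 had 1 sign throughout and 4 had every probe past 1.5-fold the same way.

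The strands of a locus were often unlike. Of 396 loci with members on both strands, 171 were measured on both, 162 on 1 and 63 on neither. Where both were measured, the differences had the same sign at 99 loci and opposite signs at 72, with a median gap between strands of 0.25. With 66.0% of measured members below 0, unrelated strands would also often have the same sign. No share over other pairs was taken, so these counts do not show how alike the strands are. At 124 of these loci, probes were above background on 1 strand while no probe of the other was above background on either array.

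The highest difference of any locus with several probes was on chromosome 8. All 3 probes of chr8:82836971-82849309_R, whose sequences are the first 3 above, were brighter in the GATA1 siRNA array. Their signals before scaling were 47.2, 92.6 and 124.5 with the control siRNA and 172.5, 340.9 and 400.2 with the GATA1 siRNA, in order of position. The scaled differences were 1.70, 1.72 and 1.52, with a mean of 1.65, and the scanner software's own error was at most 0.23. Of the 9 unmarked members that were 2-fold higher, 4 belong to this locus and its neighbour.

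The neighbouring locus on the same strand, chr8:82854412-82919089_R, has 3 probes some 81.6 kb away. Of these, 2 were measured, with differences of 1.15 and 0.38, and the other was above background in the GATA1 siRNA array alone. All of the 5 measured probes at this place were thus higher, and under other scalings and the other background correction their median lay between 0.98 and 1.58.

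The other 4 loci of highest median among those with at least 3 measured probes all higher were closer to the 1.5-fold rule. At chr3:21964899-21974524_R the scaled signals of the 5 probes were 0.50 to 2.18 with the control siRNA and 0.80 to 3.08 with the GATA1 siRNA. Every probe was higher, by 0.48 to 0.70 (mean 0.60). Another member on that strand, of the overlapping locus chr3:21973306-21974266_R, differed by 0.52. A probe annotated as 2810416G20Rik, a transcript of unassigned function, has the same position as 1 of the 5 and differed by 0.64, against 0.50 for that member, so these are not separate readings. Another probe of that transcript, just beyond the interval, differed by 0.46, and a bright probe with no gene symbol further along the strand (scaled signals of 44.4 and 43.9) by -0.02. On the opposite strand 6 of 9 members were below background on both arrays and the 2 measured ones differed by -0.06 and 0.19. The signal at this place was therefore mostly on 1 strand. The nearest NM_ gene, Tbl1xr1, a subunit of a nuclear receptor corepressor complex, differed by 0.15.

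On the X chromosome, chrX:18734106-18744367_R had 3 probes with scaled signals of 1.82, 1.28 and 1.28 with the control siRNA and 2.77, 1.84 and 2.08 with the GATA1 siRNA. The differences were 0.60, 0.52 and 0.70. A dim probe for the transcript Gm14636 in the same interval went from 0.057 to 0.11, a difference of 0.93. The locus chr17:6426800-6528950_R had a mean difference of 0.55, and chr16:59556175-59603176_R one of 0.42, while other probes in their intervals differed by -0.10 to 0.04. On chromosome 16 an unnamed probe from 59556274 to 59556333 nearly coincides with the member from 59556273 to 59556332. It differed by 0.02, against 0.28 for that member, and so did not repeat its rise. With the other background correction these means were 0.21 and 0.20. Its offset by itself shrinks differences at such dim probes, so these lower values do not test them.

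A longer run of higher values lay on chromosome 6 between 31227896 and 31288367. All 9 members on the plus strand there, of 3 loci, were measured and were higher, by 0.18 to 0.46 (median 0.35), with scaled signals of 0.68 to 7.07 in the control siRNA array. The 4 measured members on the minus strand differed by -0.23 to 0.22 (median -0.02). Under other scalings the plus strand median lay between 0.31 and 0.42. None of these 9 probes reached 1.5-fold.

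Some of the highest single values rested on 1 probe. At chr3:41143423-41359623_R, 2 of 10 probes were measured, and they differed by 2.74 and -0.37, so the mean of 1.19 described neither. The first of them was uneven within the spot, with a coefficient of variation between pixels of 0.50 with the control siRNA and 0.62 with the GATA1 siRNA. The locus chr3:50320320-50411144_R had 1 measured probe at 1.03, and a probe in the same interval for the transcript 5830415G21Rik differed by 0.74. The remaining ones each had a scaled signal under 0.15 in the control siRNA array: chr4:145000941-145148666_R at 0.95, chrX:121493684-121500532_F at 0.81, chr13:53100475-53113850_F at 0.78 (2 probes) and chr7:67047536-67050290_F at 0.70. With the other background correction these 4 fell to 0.24, 0.15, 0.33 and 0.07, and chr3:50320320-50411144_R to 0.35. The offset of that correction alone shrinks differences of probes this dim, so these falls do not test the differences. Beside chr7:67047536-67050290_F lies Snrpn, an imprinted gene, whose own probe was not measured.

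The most extended set of lower values lay on chromosome 2 at the place that encodes Morrbid. All 16 members on the minus strand between 128091693 and 128217944 (mm9) were measured, they belong to 5 loci, and every one was lower in the GATA1 siRNA array. Their differences ran from -1.15 to -0.23, with a median of -0.55, and 7 were past 1.5-fold. The first 2 probes, shown above, had scaled signals of 0.56 and 0.55 with the control siRNA and 0.27 and 0.25 with the GATA1 siRNA, differences of -1.05 and -1.15. The next 2, 30.8 kb further on, went from 2.06 to 1.14 and from 1.17 to 0.65. These 4 probes make up chr2:127988295-128194920_R, which had a mean difference of -0.98.

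Further along the same strand the differences were smaller. The 3 probes of chr2:128137419-128141735_R went from 2.79, 3.14 and 2.16 to 1.68, 1.95 and 1.2, a mean difference of -0.76. A probe annotated as Morrbid itself went from 0.89 to 0.67, a difference of -0.41, and the 3 members of the locus that overlaps it differed by -0.41, -0.37 and -0.23. The 6 members 69.7 kb beyond it differed by -0.55 to -0.46. Under other scalings and the other background correction all 16 stayed below 0, and their median lay between -0.58 and -0.48.

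The opposite strand of this cluster gave less signal. Of the 5 plus strand probes of chr2:127988295-128194920_F, 4 were below background on both arrays and 1 differed by -0.03. At the far end the 3 plus strand probes of chr2:128249388-128250301_F were lower, by 0.44 to 0.58 on the log2 scale, as was a probe of an Ensembl transcript among them at -0.79. Bcl2l11, the nearest NM_ gene at 107.7 kb from the first locus, went the other way, from a scaled signal of 0.19 to 0.35, a difference of 0.84 over 2 probes. Morrbid RNA is known from neutrophils, eosinophils and monocytes. By median, the markers of neutrophils and macrophages were higher with the GATA1 siRNA and those of eosinophils were lower. These medians were 0.60, 0.57 and -0.56, as given above with the range of the last 2 lists. The part of such cells in the values of this cluster was not tested.

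On chromosome 16, lower values came in blocks along 1 strand. Of 23 minus strand members between 90008197 and 90116780, 22 were measured, 18 were lower and 6 were past 1.5-fold lower (median -0.42, range -0.78 to 0.26). The first 7 had scaled signals of 0.16 to 1.79 in the control siRNA array and a median of -0.49. A block of 4 after a gap of 50.7 kb had a median of -0.36. The next block of 4, after a gap of 23.4 kb, was higher, by 0.03 to 0.26, and blocks of 4 and 3 beyond it had medians of -0.76 and -0.50. In each of the 5 blocks, all probes kept their sign under the other scalings and the other background correction.

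The block of higher values, from 90090205 to 90090703, lay beside bright probes of the opposite strand. The 2 measured plus strand members there, from 90090750 to 90091067, went from 34.1 and 22.7 to 39.0 and 25.4, differences of 0.19 and 0.16. They lie just beyond the block. An unnamed plus strand probe, from 90090657 to 90090716, overlaps the block and differed by 0.15. Whether RNA made elsewhere adds to these bright signals was not tested. The 4 minus strand probes there had scaled signals of 0.44 to 0.88 in the control siRNA array. The array annotation puts 10 of the minus strand probes in 1 locus, chr16:90038086-90127636_R. Their mean of -0.24 and SD of 0.37 therefore joined blocks with unlike differences. The nearest NM_ gene, Sod1, a superoxide dismutase gene, differed by 0.08.

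A locus of the same kind lay on chromosome 17. Of 10 probes of chr17:3198868-3394643_F, 9 were measured, with a mean of -0.44, and again the values came in blocks. With an overlapping locus, the 5 probes from 3257793 to 3258865 differed by -0.13 to 0.02 (median -0.04). Further along the strand, 8 probes from 3346116 to 3347183 differed by -0.87 to -0.09 (median -0.78), among them the 3 probes of chr17:3346621-3347209_F shown above. Those 3 went from scaled signals of 2.08, 2.33 and 3.60 to 1.21, 1.29 and 2.09, with differences of -0.78, -0.86 and -0.79. The first of them shares 43 of its 60 bases with a probe of the longer locus, which gave -0.79 as well, so these 2 are not separate readings. The locus starts beside a probe of Scaf8, whose protein binds the tail of RNA polymerase II, and that probe went from 8.20 to 8.12 (-0.01). Over the 2 measured probes of Scaf8 the mean difference was -0.09.

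Chromosome 5 held another short run. The 3 measured probes of chr5:77188300-77205150_F went from scaled signals of 0.16, 0.21 and 0.38 to 0.089, 0.12 and 0.18, with differences of -0.85, -0.75 and -1.05. The 2 measured probes of the overlapping locus chr5:77188626-77219161_F, 14.8 kb away, differed by -0.75 and -0.91, and the second of these lies at a marked spot. A probe annotated as Cracd, without an NM_ accession, stood beside them and differed by -0.20. Cracd is also the nearest NM_ gene, at 98.0 kb from the first locus, and had a mean of -0.40 over 2 probes. That mean takes in measured probes of the symbol whatever their accession, so it can include the probe at -0.20. With the other background correction the median of the 5 was -0.41, against -0.85 as reported. Some shrinkage is built into the offset of that correction at dim probes.

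The remaining one of the 5 loci of lowest median among those with at least 3 measured probes all lower was chr12:12768528-12849976_F. Its mean was -0.57, or -0.29 with the other background correction, while its nearest NM_ gene, the transcription factor gene Mycn, differed by 0.36. Other low values rested on 1 dim probe each. These were chr10:119960546-119979696_R at -1.03, chr17:48072598-48073137_R at -0.98, chr10:6081900-6105500_F at -0.94, chr17:3004525-3086000_R at -0.84 and chr6:53808521-53817132_F at -0.82, and all had scaled signals under 0.2 in the control siRNA array. With the other background correction they lay between -0.49 and -0.34. The offset of that correction by itself shrinks such dim differences, that of chr12:12768528-12849976_F included, so these values do not test them. At chr17:48072598-48073137_R another probe, at a marked spot, went the other way, from a signal of 5.10 below background to 519.1 with the GATA1 siRNA, and the locus stood at 1.76 with no filter on dim probes. In the interval of chr17:3004525-3086000_R, a probe of Pisd-ps2, a pseudogene, differed by -0.78.

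The nearest NM_ genes were set beside the loci past 1.5-fold. Of 16 loci and strands that were 1.5-fold or more higher, 11 had a measured nearest NM_ gene, and 2 of these genes were 1.5-fold higher and none 1.5-fold lower. Of 35 that were lower, 27 had one, and 1 of these genes was 1.5-fold lower and 2 were 1.5-fold higher. Over all measured NM_ probes, 2.25% were 1.5-fold or more higher and 2.38% lower, and 11 and 27 genes are too few to set a share against these. Several loci can share a nearest gene, as the chromosome 2 and chromosome 17 clusters do.

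Of the 5 loci with the most measured probes, chr16:90038086-90127636_R and chr17:3198868-3394643_F are described above, and the other 3 had means nearer 0. At chr5:74487385-74497428_F all 10 probes were measured, with scaled signals of 0.089 to 2.05 in the control siRNA array. They differed by -0.32 to 0.21 (mean -0.03), and a probe of Dancr, a long noncoding RNA linked to keeping progenitors undifferentiated, has the same position as 1 of them and differed by 0.18, against -0.06 for that member. At chr14:77006215-77063293_R, 8 of 10 probes were measured, and the mean of 0.04 joined unlike blocks. The first 5 were higher, by 0.16 to 0.40 (median 0.19), and the last 3 were lower, with differences of -0.59 to -0.18 (median -0.18). Each of these 8 probes kept its sign under the other scalings and the other background correction. At chr14:115423660-115463160_R, 7 of 10 probes differed by -0.41 to 0.21 (mean -0.14). That strand lies opposite Mir17hg, the host transcript of a microRNA cluster, whose own probe differed by -0.19 and around which 10 measured plus strand members had a median of -0.13. The sign of the chromosome 5 locus depends on the scaling.

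At 5 loci with 4 or 5 measured probes on 1 strand, no probe of the other strand was above background. The one with the most uniform difference was chr16:93121505-93142255_R, whose 5 probes were lower by 0.35 to 0.52 on the log2 scale, with scaled signals of 0.40 to 1.91 with the control siRNA and 0.31 to 1.38 with the GATA1 siRNA, while its 5 plus strand probes were below background. The others were chr15:68161768-68193518_R (mean -0.15), chr10:21542515-21579890_R (-0.15), chr9:96635508-96654148_R (-0.13) and chr8:60132300-60146830_F (-0.11). In the last 3 of these, probes of both signs occurred.

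Mirt1 marks a region on chromosome 19 where strands went apart. Mirt1 is annotated on the minus strand, and its 2 measured probes differed by 0.81 and 0.34. Of 10 minus strand members of chr19:53517903-53540753_R, 6 were measured, 5 of them higher, with a range of -0.13 to 1.23 and a median of 0.45. On the plus strand 5 of 11 members were measured and 4 were lower, with a median of -0.18 and 1 probe at 1.06. With the other background correction, whose offset by itself shrinks the differences of dim probes, the minus strand median was 0.16.

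The members farthest from any NM_ probe gave little signal. Both strands of chr1:115829055-115854155, 2077 and 2097 kb from Dsel, had 1 measured probe of 7, at -0.30 and -0.12. On the minus strand another probe was above background with the GATA1 siRNA alone, with signals of 3.02 and 74.6 on the respective array, and that strand stood at 0.58 with no filter on dim probes. The locus chr5:79860066-79860625_F, 2082 kb from Igfbp7, had 1 of 3, with scaled signals of 0.059 and 0.072 and a difference of 0.27 whose sign depends on the processing. Beyond 500 kb 42 members were measured, with a median difference of -0.17, and 10 more were above background in the GATA1 siRNA array alone and 2 in the control siRNA array alone.

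Loci above background on 1 array alone have a bound in place of a difference, taken against the dimmest signal that was well above background. There were 99 such loci and strands above background in the GATA1 siRNA array alone. For 37 the bound was 1 or less, for 6 it was at least 2-fold, and 5 of those 6 lay at marked spots. The highest were chr11:31643114-31643595_F at least 21.6-fold higher, chr5:75183748-75184179_R at least 9.61-fold and chr9:31834945-32015745_R at least 4.82-fold, each at a marked spot. The one outside marked spots was chr4:106506151-106537682_F, at least 4.58-fold higher by 1 of 5 probes.

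Above background in the control siRNA array alone were 27, of which 5 had a bound of 2-fold or more, 3 of them outside marked spots. These 5 include chr15:5975553-5994636_R at least 4.23-fold lower and chr1:152001112-152012796_F at least 3.26-fold lower, both at marked spots, and chr8:124697835-124699013_F at least 3.51-fold lower at an unmarked one.

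Named long noncoding RNAs gave a view of the same class from annotated transcripts. Of 57 listed, 44 are on the array by name and 29 were measured, with a median difference of 0.01. Past 1.5-fold higher was 1, Tsix at 0.67, which runs antisense to Xist, with scaled signals of 0.066 and 0.10, and none was past 1.5-fold lower. The next largest were Crnde at -0.52, Morrbid at -0.41 and Kcnq1ot1, the antisense transcript of an imprinted region, at -0.33 over 2 probes.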

How the data were processed

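Total RNA (100 ng) was amplified and labelled with Cy3, per the labels' protocols, and hybridised to 2 arrays. The authors scanned and quantified them in Agilent Feature Extraction 10.7.3.1, and the values are spot intensity, per the file headers, which also give mouse build mm9. They are background-subtracted and detrended, with no scaling between arrays. A second table of normalized intensity that the authors deposited was found by matching to hold each array's processed signal over its median. Control spots and outlier spots (117 and 133) were left out, and repeated spots were averaged on the log2 scale. Scaled signals are relative to the 75th percentile of all probes of that array. A measured probe is well above background on both arrays, and no spot was saturated. The computations used Python 3.11.15, pandas 2.3.3 and limma 3.58.1 (normexp, offset 50), and were tested on simulated data.

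Groups were taken from the transfection label. The size rules (2-fold, and 1.5-fold) stand in for a test. Named loci are the 8 highest and 8 lowest outside marked spots, the 5 in each direction with 3 or more measured probes of 1 sign by size of the median, the 5 with the most measured probes, the 5 with the highest mean signal, the 3 highest bounds in each direction, 5 loci above background on 1 strand, the 3 farthest, the nearest NM_ gene of each, and the 4 largest of the long noncoding RNA list. Of the loci with the highest mean signal, 1 is not reported here, nor is 1 of the nearest genes. The members and lists were chosen with earlier results of these data known. The clusters on chromosomes 2, 6, 8, 16, 17 and 19, the ribosomal RNA region, the chr4:106506151-106537682_F bound, and the genes and transcripts named in them were chosen after their values were seen. Symbols come from a RefSeq table of another build, used for names alone. Alternatives covered scaling, background, filters, spots, distance and size rules.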

Additional observations from a re-analysis of the deposited data

How the results depend on the processing

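The members' median stayed below 0 in each of the 12 other settings tried. It was -0.042 with the authors' table and -0.34 with no filter on dim probes, and otherwise between -0.11 and -0.06. The counts past 2-fold (14 higher, 13 lower) were less stable. The share past 2-fold in either direction is given for members against all measured probes. Counts were 3 and 5 with normexp background (0.404% against 0.247%) and 206 and 368 with no filter (9.46% against 6.95%). They were 5 and 6 with brighter probes (1.04% against 0.663%) and 9 and 5 without marked spots (0.728% against 0.689%). Over 100 kb they were 9 and 8 (1.75% against 0.95%). They were 39 and 114 at 1.5-fold, with the shares given above. At 3-fold they were 5 and 6, and by locus and strand 5 and 7, with no share of all probes taken. Measured from NM_, NR_ and XM_ probes together, 9 were higher and 12 lower (1.35% against 0.95%). Under the authors' scaling, 16 were higher and 10 lower (1.31% against 0.93%). Detection was 35.9% and 39.0% over 25 kb, 32.5% and 35.9% over 100 kb, and 60.5% and 63.3% by the software's more lenient positive and significant call. The share of loci and strands with probes of 1 sign (56.7%) was 51.2% with loess, 49.2% with the authors' table, 66.6% with normexp, 41.7% with no filter and 65.7% with brighter probes. The cause of these changes was not tested, except that the filters and distances change which probes enter. The normexp offset also shrinks the log2 differences of dim probes by itself, so fewer past 2-fold are built into that setting. Of 345 values of the 40 named loci and strands under these alternatives, 318 moved by less than the software's error and 27 by more. Many of these values could hardly move. Scaling by the median of measured probes or by the authors' table shifts every difference by the same small amount. Dropping the filter changes nothing where every probe of a locus was measured. The 318 is therefore no measure of stability. Of the 40, 36 kept their sign under every scaling. No paired analysis was possible because each siRNA has 1 array. Dim probes limit the depth: most members gave no signal above background, and the scatter of repeated spots was largest there.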
